A study of Mus musculus with 12 samples.

Results

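The STAT and JAK genes described here are Stat2 (ENSMUSG00000040033), Stat3 (ENSMUSG00000004040), Stat4 (ENSMUSG00000062939), Stat5a (ENSMUSG00000004043), Stat5b (ENSMUSG00000020919), Stat6 (ENSMUSG00000002147), Jak1 (ENSMUSG00000028530), Jak2 (ENSMUSG00000024789) and Tyk2 (ENSMUSG00000032175). They were taken by gene symbol, by a choice made with earlier results of these data known, and are 9 of the 56980 gene IDs in the deposited count table. All 9 passed the filter on low counts that left 15110 genes for testing; Stat4 passed it only through its counts in unstimulated cells. RNA sequencing measured their transcripts in bone marrow-derived macrophages of mice, cultured from marrow for 7 days in L929-conditioned medium. The genotypes were RankCre-Regnaes3cKO as the labels spell it (cKO), a conditional knockout of Regnase-3 (Zc3h12c) by a Cre named after Rank, and wildtype (WT). Cells were labelled M1 or M0, and the protocol gives stimulation with or without 100 ng/ml lipopolysaccharide (LPS) plus 10 ng/ml interferon-gamma, read here as M1 and M0. The 4 groups, cKO_M1 (replicates 7 to 9), WT_M1 (10 to 12), cKO_M0 (1 to 3) and WT_M0 (4 to 6), held 3 libraries each, and the stated question is the role of Regnase-3 when Rank-positive macrophages polarize.

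Janus kinases sit on the inner tails of cytokine receptors and, when a cytokine brings receptor chains together, phosphorylate each other, the receptor and the STAT proteins that dock there. Phosphorylated STATs pair and enter the nucleus, where most bind GAS elements, while STAT2 acts with a STAT partner and IRF9 as a complex that binds interferon-stimulated response elements (ISRE). In macrophages Jak1 and Jak2 serve the interferon-gamma receptor, Jak1 and Tyk2 the type I interferon receptor, and Jak2 also the receptor for GM-CSF. SOCS proteins, themselves products of STAT target genes, bind and restrain the kinases.

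Library totals lay between 41721452 and 42197986 counts, and levels are CPM, that is, counts relative to the TMM-scaled library total. The TMM factors were 0.837 to 0.843 in cKO_M1, 0.793 to 0.817 in WT_M1, 1.208 to 1.233 in cKO_M0 and 1.199 to 1.226 in WT_M0. The targeted gene Zc3h12c averaged 109.6 ± 15.2 CPM in cKO_M1 and 175.7 ± 16.6 CPM in WT_M1 (SD, n = 3; log2 fold change -0.68, SE 0.12, edgeR adjusted p = 0.00101). It averaged 15.6 ± 2.57 CPM in cKO_M0 and 16.4 ± 0.773 CPM in WT_M0 (log2 fold change -0.07, edgeR adjusted p = 0.8095). Counts are per gene, and the sources used here do not say which exons the deletion removes. All 10 macrophage markers were measured, with a summed level of 15850 to 17690 CPM in cKO_M1, 15060 to 16950 in WT_M1, 16390 to 17760 in cKO_M0 and 15240 to 19490 in WT_M0. Between genotypes, Cd14 (log2 fold change 0.79) and Itgam (0.25) were higher and Cd68 (-0.46) lower in cKO_M1, and Mertk (-0.72) was lower in cKO_M0, and the part of these differences in the members' results was not tested. On the first principal component within M0, cKO_M0 replicate 1 lay at -2.15, apart from replicates 2 and 3 at -27.0 and -30.3, while the WT_M0 libraries lay between 9.6 and 27.9. The labels describe no Cre-only control and leave unsaid whether replicates came from different mice or cultures. The p-values therefore reflect only the spread among these libraries, which may be technical. In such bulk libraries, fewer cells of a type and less RNA per cell cannot be told apart.

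Stimulation changed most of the members, in both directions. Apart from Stat4, which was tested only because of its level in M0, 6 of 8 members rose in M1 against M0 in cKO, 1 fell and 1 did not pass the test, beside 70.2% of all genes called (34.2% higher, 36.0% lower). In WT, 5 of these 8 rose, 1 fell and 2 did not pass, beside 71.4% of all genes called (34.2% higher, 37.1% lower). The share called is thus high for genes at large. Libraries of M1 and M0 did not overlap for 6 of the 8 members in each genotype, as for 72.7% of all genes in cKO (35.0% higher, 37.6% lower) and 75.6% in WT (36.0% higher, 39.6% lower). The median log2 fold change of the 8 was 1.24 in cKO and 1.1605 in WT, against -0.04 in cKO and -0.07 in WT over all genes.

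Among the transcription factors, Stat2, the interferon-specific STAT, had 812, 884 and 895 CPM in cKO_M1, against 164, 292 and 238 CPM in cKO_M0. In WT it had 904, 803 and 969 CPM in M1, against 199, 259.6 and 199.5 CPM in M0. Every M1 library lay far above every M0 library, and the M0 libraries were the more uneven. Stat2 rose by a log2 fold change of 1.90 (SE 0.17, edgeR adjusted p = 4.58e-08) in cKO and 2.02 (SE 0.17, edgeR adjusted p = 2.195e-08) in WT.

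Stat3, which serves interleukin-6 and interleukin-10 receptors, had 502, 549 and 556 CPM in cKO_M1, against 125, 137 and 118 CPM in cKO_M0. In WT it had 513, 508 and 534 CPM in M1, against 133, 151 and 152 CPM in M0. The states did not overlap, and the M1 libraries of both genotypes covered nearly the same range. The log2 fold change was 2.08 (SE 0.09, edgeR adjusted p = 4.787e-12) in cKO and 1.83 (SE 0.08, edgeR adjusted p = 1.957e-11) in WT.

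Stat4, the STAT of interleukin-12 signalling in T and NK cells, moved the other way and was at the edge of detection in stimulated cells. It had 13, 12 and 5 raw counts in cKO_M1, against 60, 61 and 60 in cKO_M0. In WT it had 5, 2 and 4 raw counts in M1, against 48, 62 and 58 in M0. All M1 libraries were below all M0 libraries, with a log2 fold change of -2.05 (SE 0.34, edgeR adjusted p = 5.958e-05) in cKO and -3.32 (SE 0.40, edgeR adjusted p = 2.089e-06) in WT. Because Stat4 entered the test only through M0, this fall is given as a description. Of 14 T and NK cell markers, 3 passed the low-count filter. The list summed to 0.454 to 0.795 CPM in cKO_M1 and 0.527 to 1.08 in WT_M1. In M0 the sums were 0.543 to 0.767 CPM in cKO and 0.469 to 1.08 in WT. Cd3e, Cd3g, Gzma and Cd8a were at 0 counts in every library. Of the 3 that passed, Cd2 had 9, 6 and 16 counts in cKO_M0, 11, 12 and 11 in WT_M0 and 0 throughout M1. Klrb1c had 10, 6 and 9 in cKO_M0, 7, 20 and 12 in WT_M0, 0, 0 and 4 in cKO_M1 and 0 throughout WT_M1. Lck did not fall, with 2, 12 and 14 counts in cKO_M0 and 10, 12 and 20 in cKO_M1. In WT, Lck had 6, 20 and 0 in M0 and 12, 18 and 32 in M1. The part of such cells in the Stat4 values was not tested.

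Stat5a and Stat5b, the closely related STATs of GM-CSF and interleukin-2 family receptors, parted in M1. Stat5a had 20.1, 22.7 and 23.7 CPM in cKO_M1, against 28.9, 34.2 and 28.9 CPM in cKO_M0. In WT it had 22.0, 25.0 and 25.7 CPM in M1, against 32.8, 36.2 and 33.3 CPM in M0. No M1 library reached the lowest M0 library, and Stat5a fell by 0.47 on the log2 scale in cKO (SE 0.10, edgeR adjusted p = 0.0005806) and by 0.49 in WT (SE 0.10, edgeR adjusted p = 0.0003579). Stat5b had 83.3, 87.9 and 97.0 CPM in cKO_M1 and 75.1, 87.3 and 76.6 CPM in cKO_M0. In WT, Stat5b had 83.1, 96.6 and 96.4 CPM in M1 and 83.3, 91.1 and 89.0 CPM in M0. The states overlapped in both genotypes, with a Stat5b log2 fold change of 0.17 (95% interval -0.02 to 0.36, edgeR adjusted p = 0.1056) in cKO and 0.07 (95% interval -0.12 to 0.26, edgeR adjusted p = 0.5031) in WT.

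Stat6, the STAT of interleukin-4 and interleukin-13 signalling, had 283, 319 and 332 CPM in cKO_M1 and 248, 284.9 and 259.3 CPM in cKO_M0. In WT it had 285.8, 286.9 and 306.5 CPM in M1 and 258.7, 287.2 and 266.2 CPM in M0. The highest M0 library lay above the lowest M1 library in both genotypes. In cKO the rise passed, with a log2 fold change of 0.24 (SE 0.08, edgeR adjusted p = 0.01896), but it did not pass without cKO_M0 replicate 1 or 3 or cKO_M1 replicate 8 or 9 (edgeR adjusted p up to 0.08502) or without the low-count filter (0.20, edgeR adjusted p = 0.08896). In WT the log2 fold change was 0.11 (95% interval -0.06 to 0.29, edgeR adjusted p = 0.2279).

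The directions of Stat5b and Stat6 depended on the scaling. With library totals in place of TMM factors, the median of all genes shifted to -0.58 in cKO and -0.65 in WT, and higher genes made up 24.2% of calls in cKO and 23.5% in WT, against 48.7% and 48% with TMM factors. Stat5b was then lower in M1 by log2 fold changes of -0.37 in cKO (edgeR adjusted p = 0.001061) and -0.52 in WT (edgeR adjusted p = 4.78e-05), and Stat6 by -0.30 in cKO (edgeR adjusted p = 0.00356) and -0.47 in WT (edgeR adjusted p = 7.744e-05). The other 7 members kept their direction and their call under both scalings, in both genotypes.

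All 3 kinases rose with stimulation in both genotypes. Jak2, which pairs with the second chain of the interferon-gamma receptor, had 258, 275 and 268 CPM in cKO_M1, against 31.3, 37.8 and 36.1 CPM in cKO_M0. In WT, Jak2 had 246, 257 and 239 CPM in M1, against 33.9, 37.2 and 36.9 CPM in M0. The states were far apart in every library, and Jak2 had the largest rise of the members, with log2 fold changes of 2.93 (SE 0.09, edgeR adjusted p = 1.104e-13) in cKO and 2.78 (SE 0.09, edgeR adjusted p = 1.951e-13) in WT.

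Tyk2, the kinase of the type I interferon and interleukin-12 receptors, had 201, 212 and 214 CPM in cKO_M1, against 77.6, 93.9 and 82.4 CPM in cKO_M0. In WT it had 179, 176 and 208 CPM in M1, against 92.6, 102 and 109.8 CPM in M0. The states did not overlap, with log2 fold changes of 1.30 (SE 0.09, edgeR adjusted p = 5.127e-09) in cKO and 0.89 (SE 0.09, edgeR adjusted p = 4.373e-07) in WT. Jak1, the kinase shared by the interferon, interleukin-6 and common gamma chain receptors, rose by log2 fold changes of 1.17 (SE 0.09, edgeR adjusted p = 5.612e-09) in cKO and 1.43 (SE 0.09, edgeR adjusted p = 4.943e-10) in WT.

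**Figure D1:**
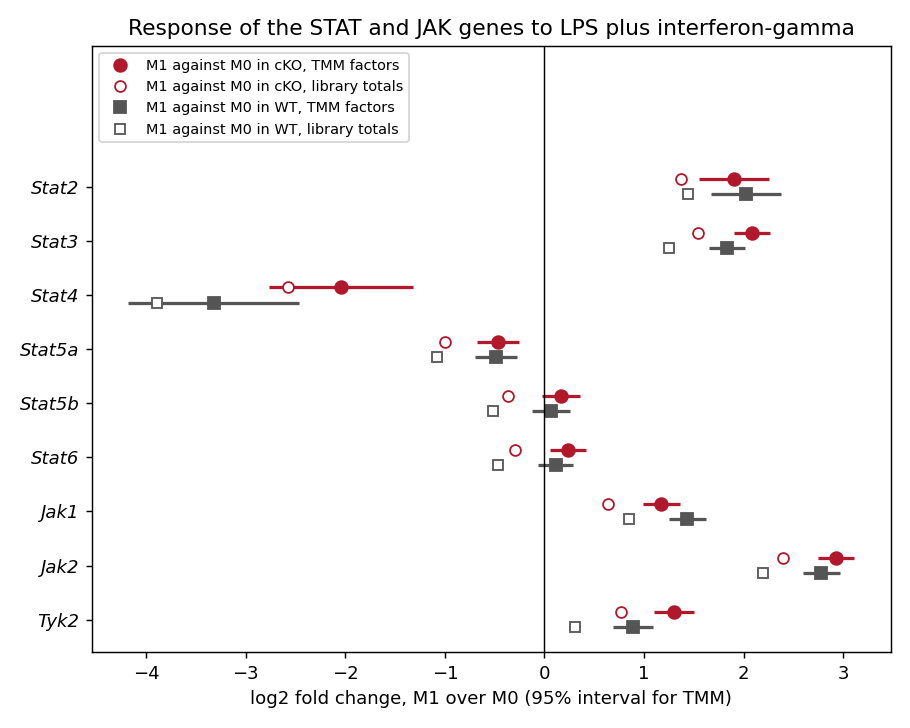
Log2 fold change of each member in M1 against M0 (horizontal axis) in cKO and in WT, with bars for the 95% interval from the edgeR fit over 12 libraries. Jak2 lies at 2.93 and 2.78, Stat4 at -2.05 and -3.32, and the intervals of Stat5b include 0 in both genotypes.

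Between genotypes, 1 member changed. In M1, Jak1 was lower in cKO, 0 members were higher by edgeR's test, and the other 8 did not pass, beside 18.6% of all genes called (8.98% higher, 9.67% lower). The share of members called is not above that of genes at large. At an unadjusted p under 0.05 there was 1 member higher (Stat4) and 1 lower (Jak1), beside 32.5% of all genes in either direction, and DESeq2 and limma-voom each called 0 higher and 1 lower. The members' median log2 fold change was 0.05, against 0.02 over all genes.

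Jak1 had 434, 484 and 521 CPM in cKO_M1, against 634, 685 and 607 CPM in WT_M1. Every cKO_M1 library lay below every WT_M1 library, as did those of 16.3% of all genes (33.7% counting both directions). Jak1 averaged 480 ± 43.6 CPM in cKO_M1 and 642 ± 39.9 CPM in WT_M1 (SD, n = 3), which is 74.8% of the WT level (log2 fold change -0.42, SE 0.08, 95% interval -0.60 to -0.24, edgeR adjusted p = 0.003126). With each library left out in turn, the log2 fold change stayed between -0.49 and -0.36 (edgeR adjusted p 0.001284 to 0.01369). Under the other tools, scalings and filters it lay between -0.44 and -0.36 (adjusted p 3.918e-05 to 0.00783).

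In M0, Jak1 had 206, 229.2 and 203 CPM in cKO and 229.0, 238 and 246 CPM in WT. The highest cKO_M0 library reached the lowest WT_M0 library, and the log2 fold change of -0.16 did not pass (95% interval -0.34 to 0.02, edgeR adjusted p = 0.3265). The difference between the genotype effects in M1 and M0 was -0.26 (95% interval -0.52 to -0.01) and did not pass either (edgeR adjusted p = 0.1998). As the mean over both states, Jak1 was lower in cKO by a log2 fold change of -0.29 (SE 0.06, edgeR adjusted p = 0.005498), the 1 member called there, beside 15.0% of all genes (6.90% higher, 8.07% lower).

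The stretch upstream of the start is shown for 4 members, to give the letters near the kinase that differed between genotypes (Jak1), the kinase that rose most (Jak2), and the only promoter windows of members that held a searched motif (Stat2 and Stat4). Sequences are RefSeq promoters of the build GRCm38.p6, which is not the build of the counts, and run 5′ to 3′ over the 250 bases before the start. Capitals mark matches to the ISRE core on either strand.
Stat2 (chr10:128270248-128270497, plus strand): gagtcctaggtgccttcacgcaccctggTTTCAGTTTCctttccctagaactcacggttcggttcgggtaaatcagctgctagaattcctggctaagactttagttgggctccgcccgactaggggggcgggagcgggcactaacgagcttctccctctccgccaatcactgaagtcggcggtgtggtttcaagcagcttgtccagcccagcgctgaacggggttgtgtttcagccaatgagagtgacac
Stat4, second start (chr1:52007990-52008239, plus strand): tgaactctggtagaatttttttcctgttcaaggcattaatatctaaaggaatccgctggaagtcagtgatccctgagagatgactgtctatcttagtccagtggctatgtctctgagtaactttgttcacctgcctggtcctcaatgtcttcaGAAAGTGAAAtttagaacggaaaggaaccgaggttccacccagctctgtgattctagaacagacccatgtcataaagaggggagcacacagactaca
Jak1 (chr4:101265224-101265473, minus strand): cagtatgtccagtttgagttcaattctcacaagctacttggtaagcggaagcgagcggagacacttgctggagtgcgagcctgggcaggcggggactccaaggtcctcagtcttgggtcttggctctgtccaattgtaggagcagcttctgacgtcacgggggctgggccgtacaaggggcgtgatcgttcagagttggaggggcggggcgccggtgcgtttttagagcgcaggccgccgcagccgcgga
Jak2 (chr19:29251553-29251802, plus strand): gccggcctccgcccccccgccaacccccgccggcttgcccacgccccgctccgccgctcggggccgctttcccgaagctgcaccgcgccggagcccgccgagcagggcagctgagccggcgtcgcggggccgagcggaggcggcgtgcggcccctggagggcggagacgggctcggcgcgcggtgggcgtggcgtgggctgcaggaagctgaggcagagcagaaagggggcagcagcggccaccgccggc

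All 9 members matched the promoter table, with 12 windows of 300 bases (250 before to 50 after a start). The ISRE core was found in the Stat2 window on the minus strand, from 222 to 213 bases before the start, where the strand shown reads TTTCAGTTTC. It was also in 1 Stat4 window on the plus strand, from 97 to 88 bases before the start, as GAAAGTGAAA. It was found in no window of the other 7 members, and 3.44% of 32851 windows of all genes held it. The GAS letters TTCNNNGAA were in 0 of the 12 windows and in 8.3% of all windows. The 2 genes with the ISRE letters moved in opposite directions with stimulation, Stat2 up and Stat4 down, and a match describes letters in a window, not binding.

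Stat4 was the member with the largest fold between genotypes in M1, and it did not pass. Its raw counts of 13, 12 and 5 in cKO_M1 and 5, 2 and 4 in WT_M1 are 0.369, 0.340 and 0.142 CPM against 0.146, 0.0601 and 0.117 CPM. The lowest cKO_M1 library lay just under the highest WT_M1 library, and the log2 fold change was 1.37 (SE 0.48, 95% interval 0.34 to 2.40, edgeR adjusted p = 0.06194). It passed with library totals (1.41, edgeR adjusted p = 0.04739) and without cKO_M1 replicate 9 (1.67, edgeR adjusted p = 0.01858). The mean over both states was 0.73 (edgeR adjusted p = 0.09171), and 0.88 without that library (edgeR adjusted p = 0.02915). In GENCODE vM21 on GRCm38, 26.7% of the exonic bases of Stat4 are shared with Gm28177 on the same strand, so counts of this gene are uncertain. Even numbers made up 60.9% of deposited values between 1 and 10, so a count may not be 1 independent fragment, and with all counts divided by 2 and rounded up the Stat4 value in M1 was 1.31 (edgeR adjusted p = 0.1216).

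Jak2 had every cKO_M1 library above every WT_M1 library, as did 17.4% of all genes, but by little. Its means were 266.9 ± 8.63 CPM in cKO_M1 and 247 ± 9.23 CPM in WT_M1 (log2 fold change 0.11, 95% interval -0.06 to 0.28, edgeR adjusted p = 0.3675). Tyk2 averaged 209 ± 7.11 CPM in cKO_M1 and 187 ± 17.8 CPM in WT_M1, with WT_M1 replicate 12 inside the cKO range (log2 fold change 0.16, 95% interval -0.04 to 0.36, edgeR adjusted p = 0.2622).

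The other STATs overlapped between genotypes in M1. Log2 fold changes were -0.05 for Stat2 (95% interval -0.39 to 0.30), 0.05 for Stat3 (-0.13 to 0.22), -0.13 for Stat5a (-0.34 to 0.09), -0.04 for Stat5b (-0.23 to 0.15) and 0.09 for Stat6 (-0.09 to 0.26). Their edgeR adjusted p-values lay between 0.4069 (Stat5a) and 0.8802 (Stat2). These intervals are not adjusted for the number of genes tested, and differences within them are not excluded with 3 libraries a group.

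**Figure D2:**
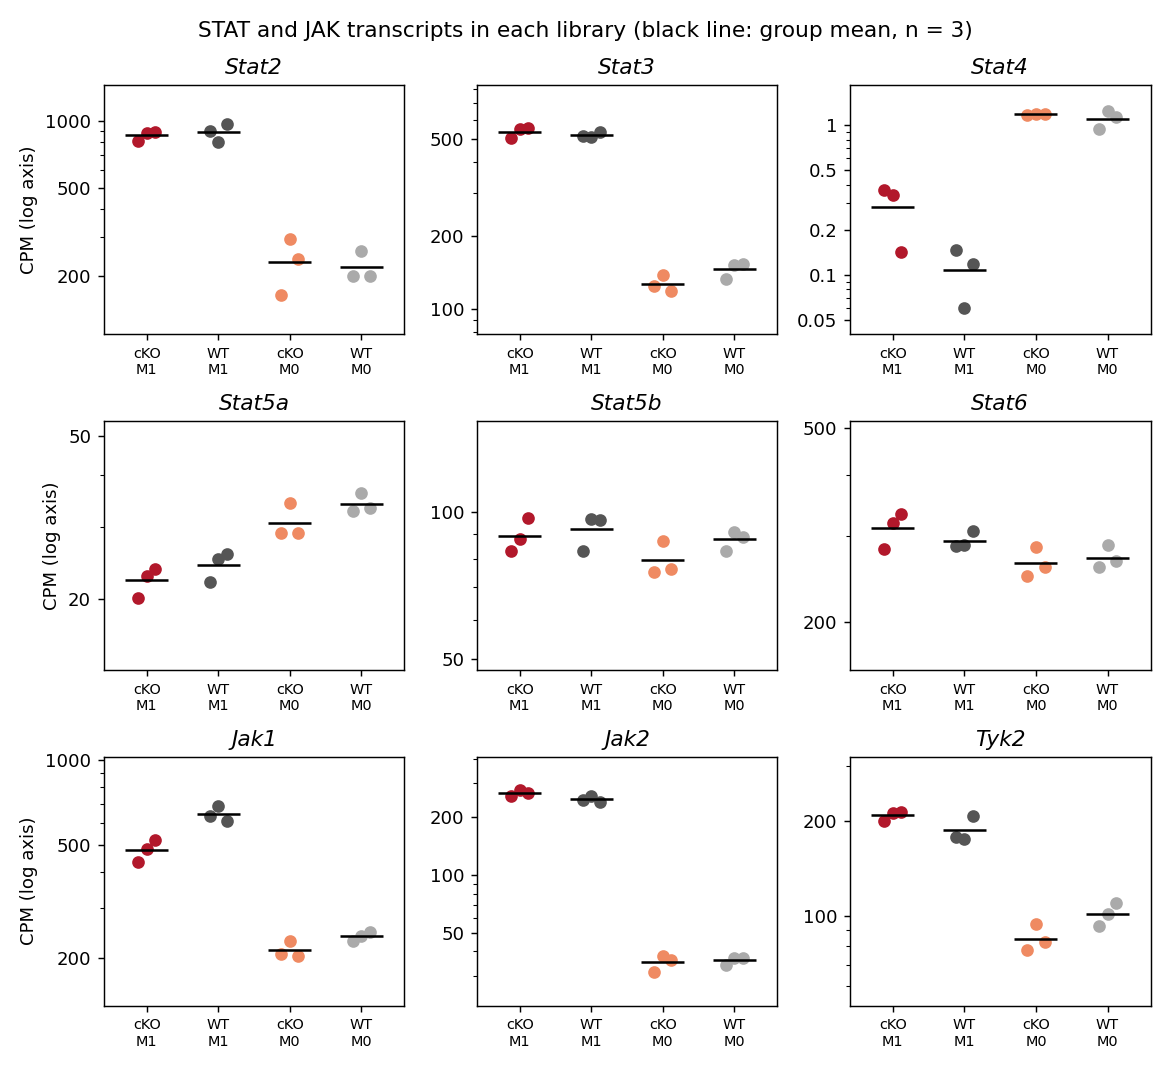
Level of each member in CPM on a log axis in the 12 libraries, 1 panel per gene, with groups in the order cKO M1, WT M1, cKO M0, WT M0, a point per library and a line at the group mean. The 3 Jak1 points of cKO M1 (434 to 521 CPM) lie below the 3 of WT M1 (607 to 685 CPM).

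In M0, 0 of 9 members passed edgeR's test, beside 1.61% of all genes called (0.662% higher, 0.953% lower), and DESeq2 and limma-voom also called 0. At an unadjusted p under 0.05, 2 members were lower in cKO, Tyk2 and Stat3, beside 18.6% of all genes in either direction. The libraries of the genotypes overlapped for all 9 members, while 26.2% of all genes had none overlapping, and the members' median log2 fold change was -0.14, against 0.01 over all genes. Tyk2 averaged 84.7 ± 8.38 CPM in cKO_M0 and 101 ± 8.57 CPM in WT_M0 (log2 fold change -0.26, 95% interval -0.46 to -0.06, edgeR adjusted p = 0.1583). Stat3 averaged 127 ± 9.99 CPM in cKO_M0 and 145 ± 10.8 CPM in WT_M0 (log2 fold change -0.20, 95% interval -0.37 to -0.02, edgeR adjusted p = 0.2153). The 2 paralogs had similar values, -0.15 for Stat5a (edgeR adjusted p = 0.4176) and -0.14 for Stat5b (edgeR adjusted p = 0.4107). For the 4 members nearest to 0, the log2 fold changes were 0.09 for Stat4, 0.08 for Stat2 and -0.04 for both Stat6 and Jak2, with edgeR adjusted p-values of 0.8452 to 0.8976.

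Stat2 was the least even member in M0, at 231 ± 64.3 CPM in cKO and 219 ± 35.0 CPM in WT. The 18 measured genes of the list linked to Stat2 (interferon-stimulated genes) ordered the M0 libraries in nearly the same way. Their mean log2 CPM was 6.07, 6.95 and 6.83 in cKO_M0 replicates 1, 2 and 3, and 6.40, 6.67 and 6.23 in WT_M0 replicates 4, 5 and 6. In both, replicate 1 was the lowest cKO_M0 library and replicate 2 the highest, and replicate 5 was the highest WT_M0 library. Leaving out single libraries moved the Stat2 log2 fold change in M0 between -0.12 and 0.27.

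**Figure D3:**
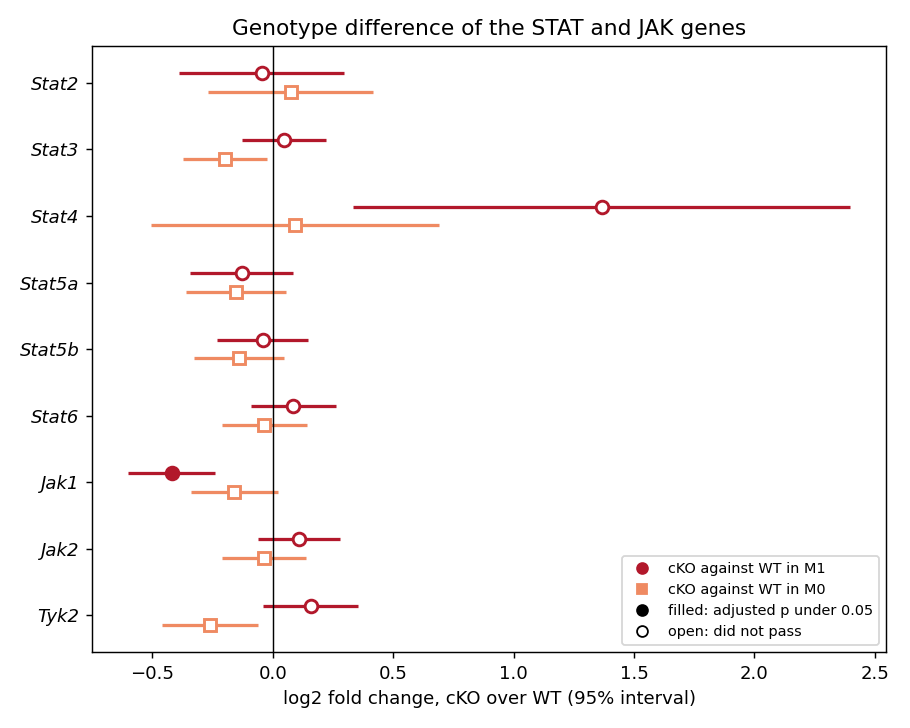
Log2 fold change of each member in cKO against WT (horizontal axis) in M1 and in M0, with bars for the 95% interval from the edgeR fit over 12 libraries. Jak1 in M1, at -0.42, is the only value that passed the adjusted threshold, and the Stat4 interval in M1 runs from 0.34 to 2.40.

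The difference between the genotype effects in M1 and M0 passed for 0 of 9 members by edgeR's test, beside 8.16% of all genes called (4.02% higher, 4.14% lower). At an unadjusted p under 0.05 there were 3 (Tyk2, Stat4 and Jak1), beside 23.9% of all genes, DESeq2 called 1 and limma-voom 0. For Tyk2, which had positive values in M1 and negative ones in M0, the difference was 0.42 (SE 0.13, 95% interval 0.14 to 0.70, edgeR adjusted p = 0.06413). It passed with DESeq2 (0.41, adjusted p = 0.04457), with library totals (0.46, edgeR adjusted p = 0.03799), and in 2 of 12 fits without 1 library, those without cKO_M0 replicate 2 and without WT_M1 replicate 12 (lowest edgeR adjusted p 0.02442). Over 8.07% of the exonic bases of Tyk2 in GENCODE vM21, a gene on the opposite strand overlaps, and the sources used here do not give the strand setting of the counts.

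Per kb of the deposited gene length, the order of levels among the STATs differed between states. The order between genes also depends on the length used. In GENCODE vM21 the exons of Stat3 cover 9527 bases, but its longest protein-coding transcript has 6042. For Stat6 these lengths are 4402 and 3775 bases, so the order of Stat6 and Stat3 in M1 holds for the deposited lengths only. In M1, Stat2 led with 145.8 CPM per kb in cKO and 150.5 in WT, ahead of Stat6 (70.7 in cKO and 66.6 in WT), Stat3 (56.2 in cKO and 54.4 in WT), Stat5b (16.2 in cKO and 16.6 in WT), Stat5a (3.11 in cKO and 3.40 in WT) and Stat4 (0.0733 in cKO and 0.0279 in WT). In M0, Stat6 led with 59.99 CPM per kb in cKO and 61.5 in WT, ahead of Stat2 (38.98 in cKO and 37.0 in WT), and Stat4 was again last (0.305 in cKO and 0.286 in WT). With the deposited lengths, Stat5b and Stat3 were next to each other in M0 and within their spread. Stat5b had 14.4 ± 1.20 CPM per kb in cKO_M0 and 15.9 ± 0.730 in WT_M0. Stat3 had 13.3 ± 1.05 in cKO_M0 and 15.2 ± 1.13 in WT_M0. This closeness depends on the length used, as exons of Stat5b cover 5539 bases and its longest protein-coding transcript has 5213. The STAT sum was 292 ± 17.8 CPM per kb in cKO_M1, 291.5 ± 17.8 in WT_M1, 131 ± 17.2 in cKO_M0 and 134.7 ± 10.8 in WT_M0.

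Stat2 thereby made up 49.9 ± 0.496% of the summed STAT level per length in cKO_M1, 51.6 ± 1.98% in WT_M1, 29.3 ± 4.70% in cKO_M0 and 27.4 ± 2.204% in WT_M0. The share of Stat6 ran the other way, at 24.2 ± 0.538% in cKO_M1, 22.9 ± 0.736% in WT_M1, 45.95 ± 2.86% in cKO_M0 and 45.7 ± 1.11% in WT_M0. These shares do not depend on the scaling of the libraries, but their size depends on the gene lengths used. Within a genotype, no library of one state overlapped those of the other for either gene's share.

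Among the kinases, Jak1 led per length in all 4 groups, at 66.4 ± 6.03 CPM per kb in cKO_M1, 88.9 ± 5.53 in WT_M1, 29.4 ± 1.99 in cKO_M0 and 32.9 ± 1.17 in WT_M0. Jak2 was the second in M1, at 53.1 ± 1.72 in cKO and 49.2 ± 1.83 in WT, and the last in M0, at 6.98 ± 0.671 in cKO and 7.16 ± 0.364 in WT. Tyk2 took the remaining place, at 30.4 ± 1.04 in cKO_M1, 27.3 ± 2.59 in WT_M1, 12.3 ± 1.22 in cKO_M0 and 14.8 ± 1.25 in WT_M0. The kinase sum was 149.9 ± 8.33 CPM per kb in cKO_M1 and 165 ± 5.39 in WT_M1, of which Jak1 held 44.3 ± 1.67% in cKO_M1 and 53.7 ± 1.70% in WT_M1. In M0, Jak1 held 60.4 ± 1.36% in cKO and 60.02 ± 0.895% in WT. The size of these shares depends on the gene lengths used. Exons of Jak1 cover 7227 bases and its longest protein-coding transcript has 4906, while both lengths are 5030 for Jak2.

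The ratio of Jak1 to Jak2 per length, taken within each library and so free of scaling, was 1.17, 1.23 and 1.35 in cKO_M1, against 1.79, 1.86 and 1.77 in WT_M1. The genotypes did not overlap, and the exact two-sided permutation test gave p = 0.1 (n = 3 each), the smallest that 3 against 3 libraries allow, adjusted p = 0.2 over the 6 ratio comparisons made. Jak1 over Tyk2 averaged 2.18 ± 0.129 in cKO_M1 and 3.28 ± 0.474 in WT_M1, also without overlap (exact permutation p = 0.1, adjusted 0.2). In M0 the ratios overlapped, with Jak1 over Jak2 at 4.24 ± 0.341 in cKO and 4.596 ± 0.128 in WT (exact permutation p = 0.2, adjusted 0.3) and Jak1 over Tyk2 at 2.39 ± 0.116 in cKO and 2.23 ± 0.1103 in WT (exact permutation p = 0.3, adjusted 0.36). A ratio shows that the 2 genes moved unequally, not which of them moved. Its size depends on the gene lengths used, while its comparison between groups does not.

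The ratio of Stat5a to Stat5b was 0.193 ± 0.00682 in cKO_M1 and 0.205 ± 0.00303 in WT_M1 (exact permutation p = 0.1, adjusted 0.2), and 0.299 ± 0.00567 in cKO_M0 and 0.302 ± 0.00993 in WT_M0 (exact permutation p = 0.7, adjusted 0.7). The M1 ratios did not overlap between genotypes but lay close, with a cKO mean 0.941 times the WT mean. The size of the ratio depends on the gene lengths used, while its comparison between groups does not. Exons of Stat5a cover 7133 bases and its longest protein-coding transcript has 3888, against 5539 and 5213 for Stat5b. The 2 genes share stretches of sequence: of the 50-base words of their transcripts in GENCODE vM21, 16.4% for Stat5a and 11.8% for Stat5b also occur in another gene, nearly all of them in the paralog. The sources used here do not give how reads matching several places were counted.

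**Figure D4:**
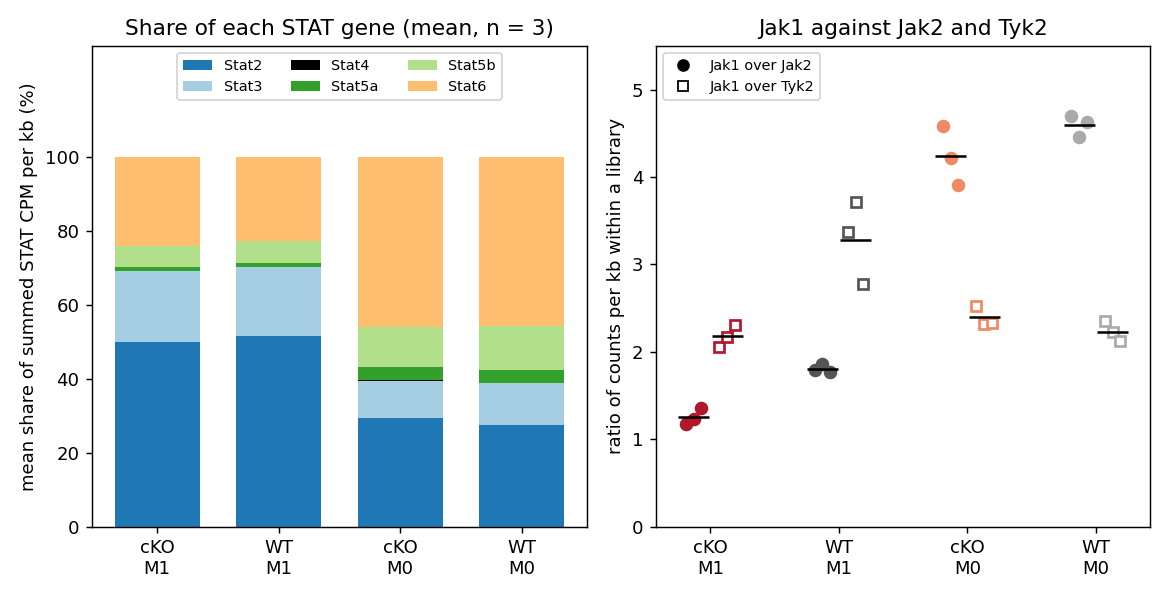
Left, mean share of each STAT gene in the summed STAT level per kb (percent, n = 3 libraries a group, SDs for Stat2 and Stat6 in the text); right, the ratios Jak1 over Jak2 (filled circles) and Jak1 over Tyk2 (open squares) per kb in each library, with a line at the group mean. Stat2 holds 49.9% in cKO M1 and 29.3% in cKO M0, and the Jak1 over Jak2 points of cKO M1 (1.17 to 1.35) lie below those of WT M1 (1.77 to 1.86).

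The members differed in how alike their patterns were over the 4 group means of log2 CPM, each centred on its own mean. The closest pairs of members were Stat5b and Stat6 (Euclidean distance 0.129), Stat2 and Stat3 (0.187) and Jak1 and Tyk2 (0.466). Among 9207 other genes of at least 5 CPM, Stat2 lay nearest to Osm (0.0478), Ddx60 (0.0504) and Sppl2a (0.0716), and Stat3 nearest to Agtrap (0.0719), Parp14 (0.0788) and Slc25a37 (0.0793). Jak1 lay nearest to Rnf214 (0.0692), Mpc1-ps (0.072) and Csf1 (0.0746). Csf1, which encodes the macrophage growth factor, averaged 18.9 ± 1.62 CPM in cKO_M1, 23.5 ± 0.178 in WT_M1, 8.17 ± 1.39 in cKO_M0 and 8.97 ± 1.95 in WT_M0. Jak2 lay nearest to Nampt (0.058), Tap1 (0.0856) and Lrrc8c (0.114), Tyk2 to Lars2 (0.0552), Sphk2 (0.0597) and Spen (0.0765), and Stat4, from farther off, to Slc35g1 (0.243), Sbk1 (0.259) and Icosl (0.274). These distances rest on 4 group means and describe these libraries only.

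The counts for the lists around the members stand beside the same shares of all genes called, 18.6% in M1, 1.61% in M0, 70.2% for stimulation in cKO and 71.4% in WT, and beside 18.6% at an unadjusted p under 0.05 in M0. Of 38 listed receptor chains for cytokines that signal through these kinases, 30 passed the low-count filter and were tested. A list gene can pass this filter through a single state, and its direction with stimulation is then only a description. In M1, 4 of these rose and 6 fell in cKO (median log2 fold change -0.06, against 0.02 over all genes). Il7r, a receptor chain that recruits JAK1, averaged 203 CPM in cKO_M1 and 507 CPM in WT_M1 (log2 fold change -1.32, edgeR adjusted p = 3.144e-05). Il11ra1 fell by 0.90 on the log2 scale (edgeR adjusted p = 0.0008307) and Il15ra by 0.40 (edgeR adjusted p = 0.003455), while Il10ra, the ligand-binding chain for interleukin-10, rose by 0.54 (edgeR adjusted p = 0.001902). In M0, 0 receptors rose and 2 fell, Csf2rb (-0.40, edgeR adjusted p = 0.04208) and Csf3r (-0.76, edgeR adjusted p = 0.02378). Without single libraries both M0 calls were lost, among them cKO_M0 replicates 2 and 3 and WT_M0 replicates 4 and 6 (edgeR adjusted p up to 0.2573 for Csf2rb and 0.1826 for Csf3r). DESeq2 called 7 receptors lower in M0 and limma-voom 3. At an unadjusted p under 0.05 in M0, 0 receptors were higher and 11 lower, beside 10.1% higher and 8.5% lower over all genes. The list median in M0 was -0.21, against 0.01 over all genes. Over both states 0 receptors rose and 8 fell in cKO, beside 15.0% of all genes called (6.90% higher, 8.07% lower). With stimulation 20 rose and 7 fell in cKO and 18 rose and 7 fell in WT. In WT, Il15ra had a log2 fold change of 5.57 and Il12rb1 of 7.89. Il23r and Ghr, which averaged at most 0.138 CPM in either M0 group, are among the receptors that passed the filter only through M1. Their direction with stimulation is therefore given as a description.

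Of 22 listed cytokines that signal through these receptors, 12 passed the low-count filter and were tested. In M1, 3 rose and 1 fell in cKO (median 0.13, against 0.02 over all genes). Il12b, a subunit of interleukin-12 and interleukin-23, averaged 7.03 CPM in cKO_M1 and 23.97 CPM in WT_M1 (log2 fold change -1.77, edgeR adjusted p = 0.000425). Csf3 rose by 1.39 (edgeR adjusted p = 0.001902), Il6 by 1.35 (edgeR adjusted p = 0.005604) and Il27 by 0.57 (edgeR adjusted p = 0.01746), the last of which did not pass without cKO_M1 replicate 7 or 8 or WT_M1 replicate 10 or 11 (edgeR adjusted p up to 0.081). In M0, 0 ligands passed, with 2 higher at an unadjusted p under 0.05, and DESeq2 and limma-voom called 0. With stimulation 10 rose and 1 fell in cKO, and 9 rose and 1 fell in WT. In WT, Il27 had a log2 fold change of 4.79 and Clcf1 of 4.62. Ifnb1, Il6, Il12b and Csf3 averaged at most 0.0197 CPM in either M0 group and passed the low-count filter only through M1. Their direction with stimulation is therefore given as a description.

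All 21 listed inhibitors were measured, and in M1 3 rose and 3 fell in cKO (median 0.02, equal to that of all genes). Socs1, which binds JAK1, JAK2 and TYK2, averaged 295.9 CPM in cKO_M1 and 125.2 CPM in WT_M1 (log2 fold change 1.24, edgeR adjusted p = 0.0009271). Socs3, which restrains gp130 signalling, averaged 716 CPM in cKO_M1 and 562 CPM in WT_M1 (0.35, edgeR adjusted p = 0.007563), and the phosphatase gene Ptpn6 535 CPM in cKO_M1 and 396 CPM in WT_M1 (0.44, edgeR adjusted p = 0.003033). Cblb, a ubiquitin ligase, fell by 0.40 (edgeR adjusted p = 0.01513), which did not pass without cKO_M1 replicate 7 or 8 or WT_M1 replicate 11 (edgeR adjusted p up to 0.06458). In M0, 0 inhibitors passed, with 1 higher and 7 lower at an unadjusted p under 0.05, and DESeq2 called 2 lower and limma-voom 1. With stimulation 14 rose and 4 fell in cKO and 13 rose and 4 fell in WT, where Socs3 had a log2 fold change of 6.63 and Ptpn2 of 1.92.

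The genes listed as linked to each STAT moved unevenly between genotypes in M1. Of the 18 linked to Stat2, 1 rose, the kinase gene Eif2ak2 (0.63, edgeR adjusted p = 0.02205), and 1 fell, Oas2 (-0.48, edgeR adjusted p = 0.01804), with a list median of -0.04. Neither passed without WT_M1 replicate 11 (edgeR adjusted p = 0.0821 for Eif2ak2 and 0.05703 for Oas2), nor did Eif2ak2 without cKO_M1 replicate 8 (0.09209) or Oas2 without cKO_M1 replicate 7 (0.05548). The count of lower genes was 3 without the low-count filter. In M0, 0 of the 18 passed, with 1 higher at an unadjusted p under 0.05 and 0 by DESeq2 and limma-voom, and 6 were higher without the low-count filter. All 18 rose with stimulation in cKO and 17 in WT.

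Of the 14 genes linked to Stat3, 5 rose and 5 fell in cKO_M1 (median 0.22). Cebpd, a C/EBP transcription factor, rose by 1.39 (edgeR adjusted p = 5.171e-05), while Gadd45g fell by 1.35 (edgeR adjusted p = 3.144e-05), Etv3 by 0.60 (edgeR adjusted p = 0.0006174) and the kinase gene Pim1 by 0.59 (edgeR adjusted p = 0.001096). In M0, 0 rose and 1 fell, Fgl2 (-0.53, edgeR adjusted p = 0.0247), a call that did not hold without replicate 2 or 3 of cKO_M0 or replicate 4 or 6 of WT_M0 (edgeR adjusted p up to 0.1788). DESeq2 called 1 higher and 3 lower in M0, and limma-voom 0 and 2. With stimulation 13 rose and 1 fell in both genotypes.

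Of the 11 genes linked to Stat5, 1 rose and 3 fell in cKO_M1 (median 0.10). Pim2, a survival kinase gene, was low, at 2.74 CPM in cKO_M1 and 1.35 CPM in WT_M1, and rose by 1.02 (edgeR adjusted p = 0.003912). Bcl2l1, which encodes BCL-XL, fell by 0.49 (edgeR adjusted p = 0.002828). Cd24a fell by 1.08 (edgeR adjusted p = 0.01513), which did not pass with limma-voom (adjusted p = 0.07195) or without cKO_M1 replicate 7 or 8 or WT_M1 replicate 11 (edgeR adjusted p up to 0.06733). Pim1, also on the Stat3 list, was the third to fall. Limma-voom called 3 of the list higher and 2 lower in M1. In M0, 3 rose, Id1 (1.82, edgeR adjusted p = 0.005661), Ccnd1 (0.78, edgeR adjusted p = 0.04677) and Ccnd2 (1.10, edgeR adjusted p = 0.04742), and 0 fell. The level of Id1 was low, at 1.75 CPM in cKO_M0 and 0.494 CPM in WT_M0. Id1 did not pass without replicate 3 of cKO_M0 or replicate 6 of WT_M0 (edgeR adjusted p up to 0.07383), and the cyclin calls without any 1 of at least 7 libraries (edgeR adjusted p up to 0.2927). With stimulation 6 rose and 2 fell in cKO and 7 rose and 3 fell in WT.

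Of the 20 genes linked to Stat6, 18 passed the low-count filter and were tested. In M1, 4 rose and 3 fell in cKO (median 0.02). Ch25h, which encodes cholesterol 25-hydroxylase, averaged 19.9 CPM in cKO_M1 and 6.86 CPM in WT_M1 (1.53, edgeR adjusted p = 0.000676). Mrc1, the mannose receptor gene, averaged 10.5 CPM in cKO_M1 and 21.4 CPM in WT_M1 (-1.03, edgeR adjusted p = 0.0008158). Ccl24 was low, at 0.652 CPM in cKO_M1 and 1.89 CPM in WT_M1, and fell by 1.53 (edgeR adjusted p = 0.01177). Without cKO_M1 replicate 8 the Ccl24 value of -1.42 did not pass (edgeR adjusted p = 0.0576). In M0, 0 passed, with 1 higher and 3 lower at an unadjusted p under 0.05, and DESeq2 and limma-voom called 1 lower. With stimulation 7 rose and 10 fell in cKO and 7 rose and 9 fell in WT. Arg1, at 0.163 CPM in cKO_M0 and 0.0596 in WT_M0, passed the filter only through M1. Mgl2, Fn1 and Alox15, which averaged at most 0.0684 CPM in either M1 group, are among those that passed only through M0. The direction of these genes with stimulation is therefore given as a description. The lists share genes with each other, such as Socs1, Socs3, Il4ra and Pim1, so their counts are not separate.

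**Figure D5:**
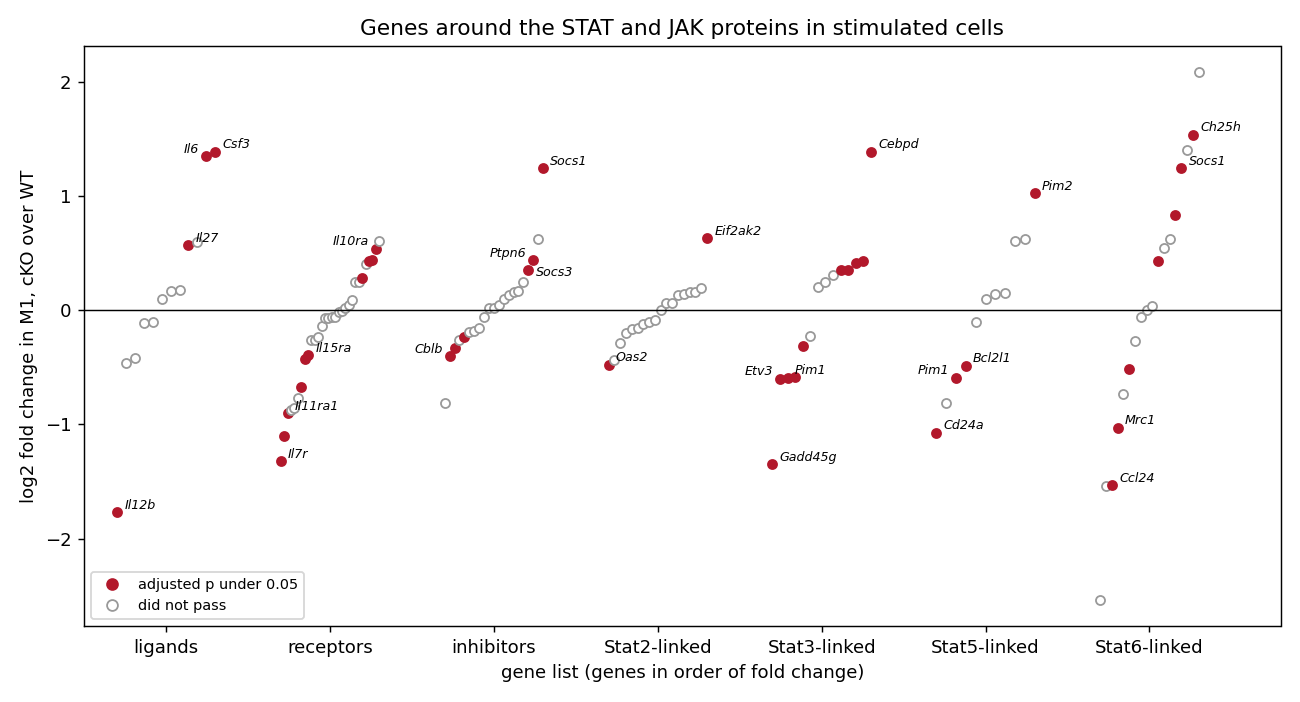
Log2 fold change in cKO against WT in M1 (vertical axis) of every tested gene of the 7 lists around the STAT and JAK proteins, in order of fold change within a list; filled points passed an adjusted p under 0.05 and open points did not. Il12b lies lowest of the ligands at -1.77 and Socs1 highest of the inhibitors at 1.24; some open points of the Stat6 list lie beyond the named genes.

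The level of markers of other cells moved with state or genotype. The 8 B and plasma cell markers, 4 of which passed the filter, summed to 0.454 to 0.794 CPM in cKO_M1, 3.16 to 5.20 in WT_M1, 32.9 to 62.4 in cKO_M0 and 53.7 to 70.6 in WT_M0. In cKO_M0 replicates 1, 2 and 3, Igkc had 318, 4 and 0 counts and Jchain 284, 8 and 2. In WT_M0, Igkc had 386, 171 and 341 counts and Jchain 216, 99 and 191. The 8 dendritic cell markers (5 passed) summed to 3.45 to 4.96 CPM in cKO_M1, 4.69 to 5.59 in WT_M1, 0.667 to 1.53 in cKO_M0 and 0.899 to 1.30 in WT_M0. Xcr1, Clec9a and Ccr7 made up most of the M1 sums. Cd209a and Siglech were at 0 counts in every M1 library, and Zbtb46 had 2 to 10 counts in M1 and 7 to 24 in M0. The 8 neutrophil markers (4 passed) summed to 7.30 to 16.2 CPM in cKO_M1, 6.13 to 10.97 in WT_M1, 1.00 to 1.996 in cKO_M0 and 1.22 to 2.64 in WT_M0. S100a8 made up nearly all of the M1 sums, with 550, 374 and 256 counts in cKO_M1, 357, 202 and 260 in WT_M1, 33, 20 and 23 in cKO_M0 and 43, 16 and 10 in WT_M0, while Elane and Cxcr2 were at 0 counts in every M1 library. Their part in the members' results was not tested.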

How the data were processed

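RNA of 12 macrophage libraries was sequenced, 3 in each of 4 groups taken from the labels. The table the authors deposited held raw counts without normalization and a gene length in bases, per the file headers. Per the submitters' processing notes, reads passed through featureCounts 2.0.3, SAMtools 1.16.1, HISAT2 2.2.1 and Trimmomatic 0.39 (order not stated) on GRCm39; the sources used here do not give the annotation release, strand or multi-mapping settings. Of the 56980 IDs, 52073 matched a symbol. Members and lists were chosen with earlier results of these data known.

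Counts were tested in R 4.3.3 with edgeR 4.0.16: filterByExpr (minimum count 10, minimum total 15), TMM factors, 1 mean per group over all 12 libraries, the quasi-likelihood test, and p-values adjusted by Benjamini-Hochberg across 15110 genes, with a threshold of 0.05. SE was taken from the fold change and F, and intervals are 95%. The procedure was tested on simulated data. Alternatives were DESeq2 1.42.0, limma-voom 3.58.1, library totals, no filter, only the compared groups, halved counts (60.9% of values from 1 to 10 were even) and leaving out each library. CPM per kb used the deposited gene length.

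Named list genes were those with the smallest p in M1 that passed, up to 4 a list, those that passed in M0, and 2 a list for stimulation in WT. Neighbours in pattern were the 3 genes at the smallest Euclidean distance over 4 group means (log2 CPM, prior count 2), for members spanning at least 1, among genes of at least 5 CPM with no predicted-gene name. Promoter sequences are from RefSeq (GRCm38.p6). One marker gene result is not reported here.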

Additional observations from a re-analysis of the deposited data

Results flagged for a closer look

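No member was singled out here. Of the list genes named in the report, 10 are given here because the genotype effect differed between M1 and M0 by edgeR's test of the difference itself. Differences above 0, meaning a higher cKO effect in M1 than in M0, were those of Cebpd (1.65, adjusted p = 0.0008147), Pim2 (1.03, adjusted p = 0.03728), Il10ra (0.89, adjusted p = 0.002813), Socs3 (0.67, adjusted p = 0.005905) and Ptpn6 (0.47, adjusted p = 0.02942). Differences below 0 were those of Id1 (-1.72, adjusted p = 0.007274), Gadd45g (-1.53, adjusted p = 0.0008147), Il7r (-1.07, adjusted p = 0.002431), Mrc1 (-0.82, adjusted p = 0.03882) and Bcl2l1 (-0.74, adjusted p = 0.0054). For all but Id1, Il7r and Mrc1 the effects in M1 and M0 had opposite signs, but no M0 effect of opposite sign passed. Socs3 had 0.35 in M1 and -0.32 in M0 (edgeR adjusted p = 0.1046 in M0). Pim2 had 1.02 in M1 and -0.006 in M0 (edgeR adjusted p = 0.9963 in M0). Over all genes of these lists, 16 passed this test, 10 above 0 and 6 below 0, so 6 that passed are not named here. All values are log2 with 3 libraries a group.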

How the results depend on the processing

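Changes are log2 and p-values edgeR's, adjusted, unless named. Members called in M1 (cKO against WT) numbered 2 with library totals and 1 to 2 with a library left out. The difference between states was called for 1 member with DESeq2 and 1 with library totals, and for 0 to 1 with a library left out. Members called over both states numbered 1 to 2 with a library left out (Stat4 passed without cKO_M1 replicate 9), in cKO stimulation 7 to 9, in WT stimulation 7 to 7 and in M0 0 to 0. Stat5b passed in cKO stimulation without cKO_M0 replicate 2 or cKO_M1 replicate 7 (lowest p 0.04038). With library totals, Stat2 and Stat5b in M1 took values of 0.0087 and 0.0155, and Stat5b and Stat6 under stimulation -0.37 and -0.30 in cKO and -0.52 and -0.47 in WT; the shift of all genes under that scaling is given above. Without the filter the Stat5a difference between states was -0.0055. None of the 3 uncalled values passed there. With a library left out, signs changed, without a call, for Stat2 (-0.12 to 0.27), Stat4 (-0.0115 to 0.184), Stat6 (-0.0904 to 0.0114) and Jak2 (-0.0908 to 0.0414) in M0, Stat2 in M1 (-0.131 to 0.0054), Stat2 (-0.320 to 0.0780) and Stat5a (-0.0420 to 0.106) in the difference between states, and Stat2 (-0.0845 to 0.115) and Stat6 (-0.0092 to 0.0495) over both states. Of all genes, 244 were called in M0, but 874 with DESeq2, 491 with limma-voom, 1182 without the filter and 394 with only the M0 groups; with a library left out, 0 to 202 were higher and 1 to 258 lower. The difference between states was called for 1233 genes, 1884 with DESeq2 and 1972 without the filter. Leaving out a library gave 671 to 1384 higher and 985 to 1698 lower in M1, 259 to 784 and 306 to 792 for the difference, and 489 to 1313 and 774 to 1615 over both states. Higher genes made up 48.2% of calls in M1, but 61.5% with library totals; 49.3% and 60.5% for the difference; 46.1% and 59.9% over both states; and in M0 41%, but 60% without the filter and 51% with only the M0 groups. The cause was not tested. No paired analysis was possible because no 2 groups share a replicate number. Depth limits Stat4 most, at 2 to 13 counts a library in M1.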
